A study of Mus musculus with 6 samples.

Results

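The messages described here encode 8 transporters of glucose, amino acids and lactate at the cell surface and the heavy chain that some of them need. They were chosen by name as a set of plasma membrane transporters and a partner protein, and they are 9 of the 51912 genes that could be counted in these libraries and 9 of the 13231 that were tested. The sequenced material was poly(A) RNA of E14, an embryonic stem cell line of the mouse grown on gelatin with serum and leukemia inhibitory factor, taken at successive steps of a ribosome purification known as RAPIDASH. All cells of every sample received cycloheximide, which stalls ribosomes on their messages, shortly before harvest. Their lysates were spun through a sucrose cushion, and the ribosome-containing pellet was divided. The 3 eluate libraries hold RNA from the part put through chromatography on a sulfolink resin charged with cysteine and then eluted. The 3 pellet libraries hold RNA extracted directly from the other part. The question of the design is how passage over the resin changes the set of messages left after the cushion. Replicates 1 to 3 of each group are not said to be separate cultures, and the p-values therefore cover only the spread among the libraries at hand.

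The libraries held 1.00e+07 to 1.16e+07 estimated counts in the eluates and 7.84e+06 to 1.04e+07 in the pellets. Values per library are given as CPM, counts per 1e+06 counts of the library after scaling, and are therefore shares of a library. For the level of a message in a library, few cells with it and little of it per cell cannot be told apart in such bulk RNA. Eluates and pellets are parts of divided cushion pellets, and their comparison concerns the messages recovered at each step. All 8 embryonic stem cell markers looked up were above 1 CPM in every library, and their summed level was 11165 to 11312 CPM in eluates and 8862 to 9473 CPM in pellets. Means of 4 of these markers were higher in the eluates, led by Dppa5a and Pou5f1, and means of the other 4 (Sox2, Nanog, Zfp42 and Tdgf1) were lower. Markers of primitive endoderm, mesoderm, fibroblasts and neural cells summed to at most 21.4 CPM for any of these lists in any library, and T and Col1a2 were at 0 in some. The part of these marker levels in the transporter results was not tested.

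Cells take up glucose through facilitative carriers and amino acids through several carrier families that differ in the amino acids they accept and in whether they need sodium or a partner protein. Slc2a1 and Slc2a3 encode the glucose carriers GLUT1 and GLUT3. Slc3a2 encodes the glycoprotein heavy chain that is bound by a disulfide bridge to light chains such as the products of Slc7a5 and Slc7a7, which carry the amino acids. Such membrane proteins are made by ribosomes on the endoplasmic reticulum, and pluripotent stem cells are known for strong glycolysis and a high demand for glutamine.

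The members differ in base composition, in the coding sequence as in the whole message. The coding starts of Slc7a5, the member with the largest rise in the eluates, and Slc16a1, the member with the largest fall, are shown for that reason. Capitals mark a G or C at the third base of a codon, and each window holds the first 90 coding bases of the transcript counted, from the GENCODE mouse release 21 annotation (GRCm38, chromosome 8 for Slc7a5 and chromosome 3 for Slc16a1).
Slc7a5: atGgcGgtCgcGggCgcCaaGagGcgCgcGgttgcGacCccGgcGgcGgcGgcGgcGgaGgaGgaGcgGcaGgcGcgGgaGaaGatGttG
Slc16a1: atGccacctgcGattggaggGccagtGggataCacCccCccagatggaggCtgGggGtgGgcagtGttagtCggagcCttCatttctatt
The Slc7a5 window ends a codon in G or C at 29 of 30 codons, and the Slc16a1 window at 15 of 30. These were the highest and the lowest counts among the windows of the 9 messages. Over the whole coding sequence, 82.5% of Slc7a5 codons and 50.8% of Slc16a1 codons ended in G or C.

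Most of these messages differed between eluates and pellets, and more of them fell than rose. Of the 9 members, 2 rose in the eluates (Slc7a5 and Slc3a2), 5 fell (Slc16a1, Slc38a2, Slc7a3, Slc2a3 and Slc2a1), and Slc1a5 and Slc7a7 did not pass the test. A change was called at an adjusted p under 0.05 in edgeR's quasi-likelihood test, adjusted by the Benjamini-Hochberg method over all 13231 genes. Many genes passed the same test, so the counts are read against that background. The 7 of 9 members called make 77.8%, against 52.7% of all genes tested. The members that rose make 22.2%, against 24.5% of all genes, and those that fell 55.6%, against 28.2%. The eluate and pellet values did not overlap for 6 of the 9 members (66.7%), against 60.3% of all genes. The median log2 fold change was -0.26 for the members and 0.0035 for all genes tested. With 1 library left out, between 1 and 3 members rose and 4 or 5 fell, as given gene by gene below. Over all genes, 2615 to 3722 rose and 3224 to 4039 fell in these fits, with the lowest counts without pellet 3. Without pellet 1, which stood apart from the other pellets, 3 members rose and 5 fell, with a median of -0.15. More genes were called in that setting too, as 3722 rose and 4039 fell of 13522 tested, against 3241 and 3736 of 13231 with all libraries. Together the 9 messages made up 0.175%, 0.159% and 0.164% of the matched counts in eluates 1 to 3, against 0.225%, 0.178% and 0.184% in pellets 1 to 3.

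**Figure D1:**
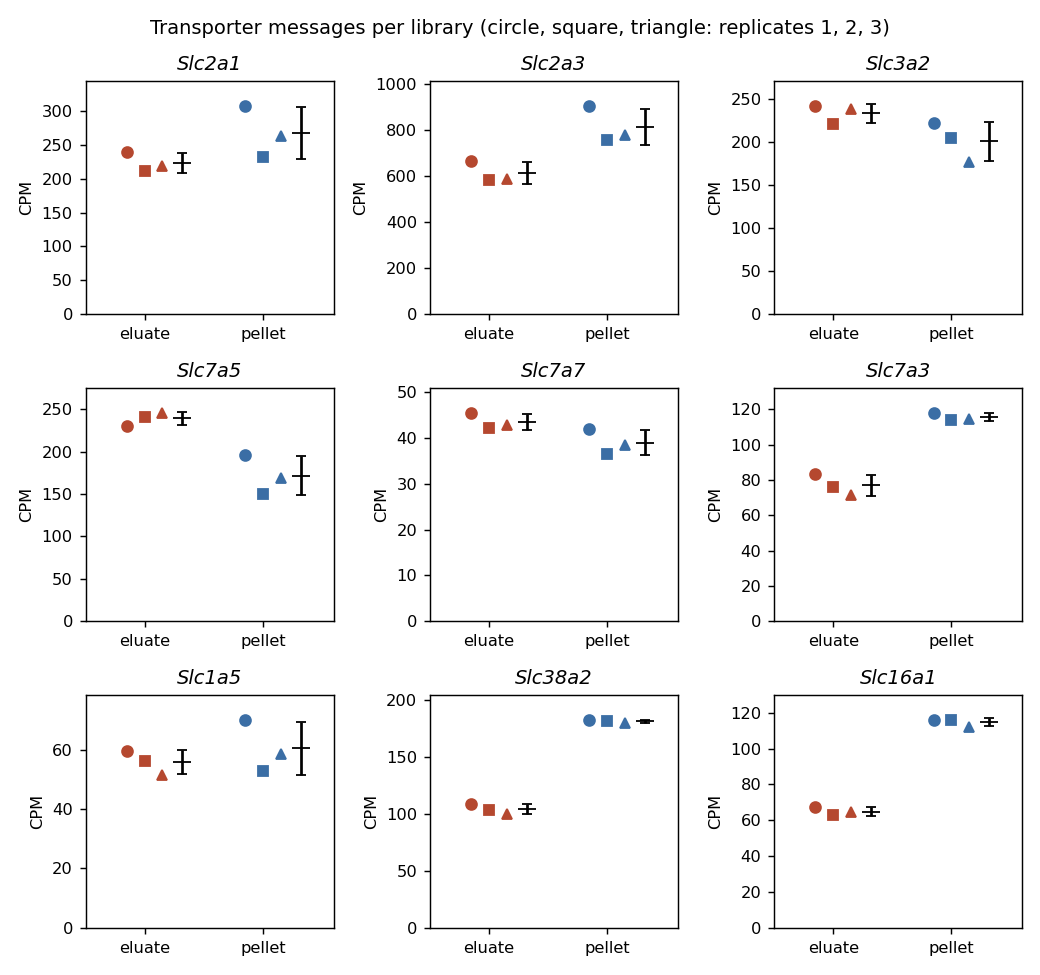
CPM of each of the 9 transporter messages (y axis, from 0) in the 3 eluates (red, left) and the 3 pellets (blue, right), with the mean and SD of each group in black. Slc38a2 and Slc16a1 show eluate values far below their pellet values with little spread, whereas Slc2a1, Slc3a2 and Slc1a5 overlap between the groups.

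Both glucose carrier messages fell in the eluates. Slc2a3, the carrier of higher glucose affinity, had 667, 584 and 587 CPM in eluates 1 to 3, against 904, 759 and 777 CPM in pellets 1 to 3. Every eluate was below every pellet. Its mean was 613 ± 47.5 CPM in the eluates and 813 ± 79.3 CPM in the pellets (SD, n = 3 each), a log2 fold change of -0.41 ± 0.079 (SE, edgeR adjusted p = 0.000472). Slc2a1, the carrier found in most cell types, had 239, 211 and 218 CPM in the eluates, against 307, 231 and 263 CPM in the pellets. The groups overlapped, because eluate 1 was above pellet 2. Its mean was 223 ± 14.5 CPM in the eluates and 267 ± 38.0 CPM in the pellets (SD, n = 3 each), a log2 fold change of -0.26 ± 0.093 (SE, edgeR adjusted p = 0.0298). The Slc2a1 call was lost without eluate 2 (adjusted p = 0.114), eluate 3 (0.104) or pellet 3 (0.0645) in the same edgeR test. Its direction was kept, and without pellet 1 the log2 fold change was -0.15 (edgeR adjusted p = 0.0462). The ratio of Slc2a1 to Slc2a3 counts within a library had a log2 value of -1.46 ± 0.029 in the eluates and -1.61 ± 0.089 in the pellets (SD, n = 3 each). The ratios did not overlap, but 3 against 3 libraries cannot give an exact permutation p below 0.1, which was the two-sided value here (0.2 after adjustment over the 4 ratios tested).

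Slc3a2 and its light chain Slc7a5 both rose, whereas the change of the light chain Slc7a7 did not pass the test. Slc7a5, the exchanger LAT1 for large neutral amino acids such as leucine, had 231, 241 and 246 CPM in eluates 1 to 3, against 196, 149.9 and 168 CPM in pellets 1 to 3. Every eluate was above every pellet. Its mean was 239 ± 7.78 CPM in the eluates and 171 ± 23.1 CPM in the pellets (SD, n = 3 each), a log2 fold change of 0.48 ± 0.085 (SE, edgeR adjusted p = 0.000236). This was the largest rise among the members. Slc3a2, the heavy chain that brings these light chains to the cell surface, had 242, 221 and 238 CPM in the eluates, against 222, 204 and 176 CPM in the pellets. Eluate 2 lay just below pellet 1, so the groups overlapped. Its mean was 233 ± 11.0 CPM in the eluates and 201 ± 22.9 CPM in the pellets (SD, n = 3 each), a log2 fold change of 0.22 ± 0.080 (SE, edgeR adjusted p = 0.0330). The Slc3a2 call was lost without eluate 1 (adjusted p = 0.122), eluate 3 (0.106), pellet 2 (0.0509) or pellet 3 (0.198) in the same edgeR test, with a log2 fold change of 0.13 without pellet 3. Slc7a7, which exchanges cationic for neutral amino acids, had 45.5, 42.2 and 42.8 CPM in the eluates, against 41.9, 36.5 and 38.5 CPM in the pellets. The groups did not overlap, by a gap of 0.342 CPM. The log2 fold change was 0.16 ± 0.090 (SE, edgeR adjusted p = 0.145), with a 95% interval for the fold of 0.980 to 1.28 from limma voom. Without pellet 1 the same edgeR test gave an adjusted p of 0.0430.

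Heavy and light chains meet as proteins, and the ratios of their messages were compared within each library. The log2 ratio of Slc7a5 to Slc3a2 counts was 0.035 ± 0.097 in the eluates and -0.23 ± 0.20 in the pellets (SD, n = 3 each), and the groups overlapped (difference 0.27, exact permutation p = 0.2, two-sided, adjusted 0.267). The log2 ratio of Slc7a7 to Slc3a2 was -2.42 ± 0.043 in the eluates and -2.36 ± 0.15 in the pellets (SD, n = 3 each). These groups overlapped too (difference -0.063, exact permutation p = 0.8, two-sided, adjusted 0.8). A difference in either ratio was not detectable with 3 libraries a group. On the TPM scale, which corrects for length, the ratio of Slc7a5 to Slc3a2 was 0.431, 0.483 and 0.459 in eluates 1 to 3, against 0.398, 0.326 and 0.431 in pellets 1 to 3.

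**Figure D2:**
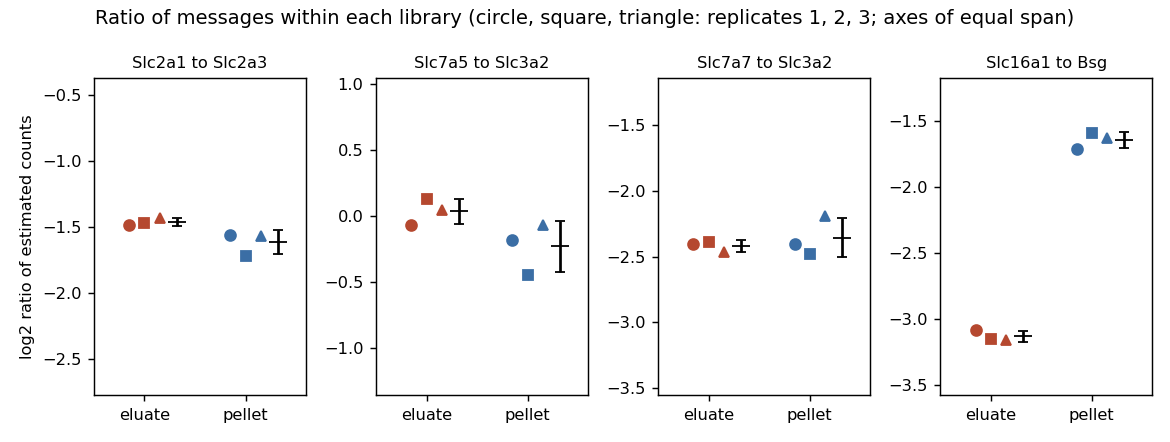
Log2 ratio of estimated counts of message pairs within each library (y axis, panels of equal span) in the 3 eluates (red, left) and the 3 pellets (blue, right), with the mean and SD in black. The ratio of Slc16a1 to Bsg is near -3.13 in the eluates and -1.64 in the pellets, a wider gap than in the other 3 panels.

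The other amino acid carriers work without the heavy chain, and 2 of the 3 fell. Slc38a2, the sodium-coupled carrier SNAT2 for small neutral amino acids, is known to be induced when amino acids run short. It had 109, 104 and 99.9 CPM in eluates 1 to 3, against 183, 181 and 180.0 CPM in pellets 1 to 3. Every eluate was below every pellet, and both groups were tight. Its mean was 104 ± 4.41 CPM in the eluates and 181 ± 1.32 CPM in the pellets (SD, n = 3 each), a log2 fold change of -0.80 ± 0.067 (SE, edgeR adjusted p = 2.56e-07). Slc7a3, the carrier CAT3 for arginine and lysine, had 83.2, 76.0 and 71.7 CPM in the eluates, against 118, 114 and 114 CPM in the pellets. Again every eluate was below every pellet. Its mean was 77.0 ± 5.84 CPM in the eluates and 115 ± 2.26 CPM in the pellets (SD, n = 3 each), a log2 fold change of -0.58 ± 0.076 (SE, edgeR adjusted p = 1.20e-05). Slc1a5, the sodium-dependent exchanger ASCT2 that carries glutamine, had 59.4, 56.3 and 51.3 CPM in the eluates, against 70.1, 52.6 and 58.7 CPM in the pellets. The values interleaved, and only pellet 1 was above all eluates. The log2 fold change was -0.12 ± 0.10 (SE, edgeR adjusted p = 0.368), with a 95% interval for the fold of 0.798 to 1.08 from limma voom. Without pellet 1 it was 0.0054 (edgeR adjusted p = 0.964).

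Slc16a1, the proton-coupled carrier MCT1 for lactate and pyruvate, fell most among the members. It had 67.4, 62.8 and 64.5 CPM in eluates 1 to 3, against 116, 116 and 112 CPM in pellets 1 to 3. Every eluate was far below every pellet. Its mean was 64.9 ± 2.29 CPM in the eluates and 115 ± 2.31 CPM in the pellets (SD, n = 3 each), a log2 fold change of -0.82 ± 0.072 (SE, edgeR adjusted p = 3.37e-07). Its chaperone basigin, encoded by Bsg, went the other way, at 569 ± 8.21 CPM in the eluates and 358 ± 18.3 CPM in the pellets (SD, n = 3 each). The log2 fold change of Bsg was 0.67 ± 0.063 (SE, edgeR adjusted p = 6.76e-07), and 0.17 (0.0238) with the trend of GC content and length removed from each library, where Slc16a1 was at -0.08 (0.433). Within a library, the log2 ratio of Slc16a1 to Bsg counts was -3.13 ± 0.040 in the eluates and -1.64 ± 0.061 in the pellets (SD, n = 3 each). The ratios did not overlap (difference -1.49), and the exact permutation p was 0.1, two-sided, the smallest that 3 against 3 can give (adjusted 0.2).

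Levels of different genes can be set side by side only per length, in TPM. In the eluates the order was Slc2a3 (151 ± 13.4 TPM), Slc3a2 (142 ± 7.13), Slc2a1 (66.1 ± 5.16), Slc7a5 (64.7 ± 1.73), Slc7a3 (35.0 ± 2.92), Slc38a2 (24.3 ± 1.27), Slc7a7 (20.2 ± 1.10), Slc1a5 (19.7 ± 1.55) and Slc16a1 (16.4 ± 0.914). The neighbours Slc2a3 and Slc3a2, Slc2a1 and Slc7a5, and Slc7a7 and Slc1a5 overlapped in their eluate values. In the pellets the order was Slc2a3 (214 ± 39.0 TPM), Slc3a2 (133 ± 22.3), Slc2a1 (85.9 ± 18.6), Slc7a3 (56.1 ± 5.75), Slc7a5 (51.0 ± 10.3), Slc38a2 (43.9 ± 4.34), Slc16a1 (29.8 ± 3.10), Slc1a5 (23.6 ± 5.02) and Slc7a7 (19.4 ± 2.85). All these are mean TPM ± SD of 3 libraries. In the pellets Slc7a3 and Slc7a5, Slc7a5 and Slc38a2, Slc16a1 and Slc1a5, and Slc1a5 and Slc7a7 overlapped. Slc2a3 led in both groups, and the last place was held by Slc16a1 in the eluates and by Slc7a7 in the pellets.

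**Figure D3:**
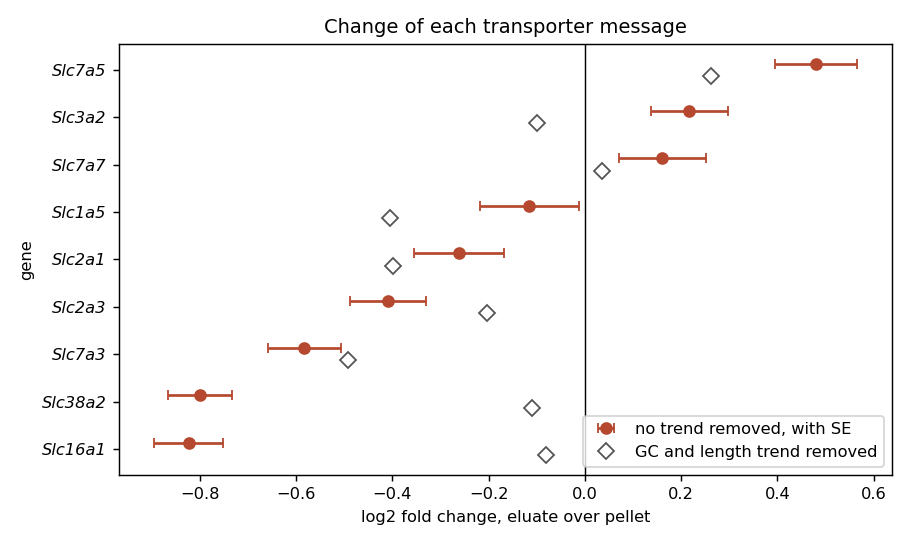
Log2 fold change of each message, eluate over pellet (x axis), as counted (filled circles, bars are SE) and after each library's trend in GC content and length was removed (open diamonds). The values run from 0.48 for Slc7a5 to -0.82 for Slc16a1 as counted, and after removal Slc38a2 and Slc16a1 lie at -0.11 and -0.08.

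The changes varied with the base composition of the messages. Across all tested genes, log2 fold change and GC content of the transcript had a Spearman rho of 0.71, and across the 9 members it was 0.87. The members share their 6 libraries, so this is a description of them. Slc16a1 and Slc38a2 had the lowest GC content of the set, 42.9% and 43.9%, with 3' untranslated parts of 2740 and 2735 bases. All tested genes were ordered by GC content and cut into 10 bins of equal size. The bin of Slc16a1 and Slc38a2 had a median log2 fold change of -0.56 (n = 1323), and both lay below it, at -0.82 and -0.80. Slc7a5 had 56.3% GC, and the median of its bin was 0.29. Slc1a5 had the highest GC content, 56.5%, and stood below its bin, whose median was 0.35. Slc2a1, at 54.0% GC, also stood apart from its bin, whose median was 0.19, whereas Slc3a2, at 54.1% GC in the same bin, stood close to it. Slc7a3 (48.8% GC) and Slc2a3 (49.4% GC) were below the medians of their bins, -0.20 and -0.073, and Slc7a7 (51.9% GC) was near its own, 0.084. Length of the message had a rho of -0.62 over the members and -0.43 over all genes, and coding length 0.0084 over the members and -0.42 over all genes. The members' coding lengths, weighted by transcript, spanned only 1347 to 1857 bases.

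**Figure D4:**
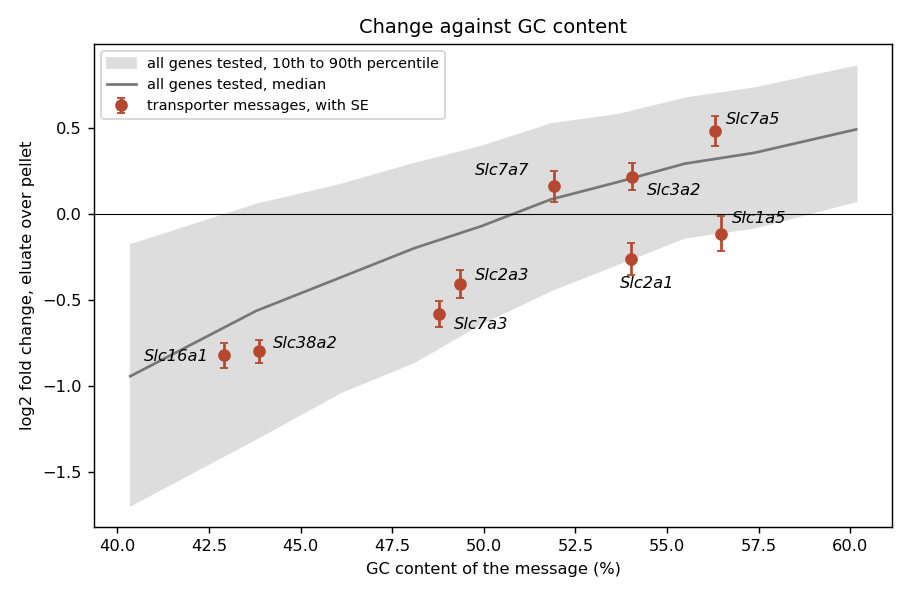
Log2 fold change, eluate over pellet (y axis), against GC content of the message (x axis, percent) for the 9 transporter messages (points with SE) over the median and the 10th to 90th percentile of all genes tested in 10 bins of GC content (line and band). Slc16a1 and Slc38a2 sit low on the left, below the line and within the band, and Slc2a1 and Slc1a5 sit near the lower edge of the band on the right.

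With the smooth trend in GC content and length removed from each library, some calls ended and others appeared. Slc16a1 had a log2 fold change of -0.08 (edgeR adjusted p = 0.433) and Slc38a2 of -0.11 (0.203), so neither fall passed the test. Other removals gave other calls. With the GC trend alone removed, Slc38a2 was still called (-0.23, 0.00822) and Slc16a1 was not (-0.17, 0.0694). With the trends of the coding and 3' untranslated parts removed, a setting chosen after seeing the data, both were called (Slc38a2 -0.21, 0.00722; Slc16a1 -0.19, 0.0285). In the first of these settings, with both GC content and length removed, Slc3a2 turned to -0.10 (0.231). Slc1a5, not called as counted, fell there by 0.41 on the log2 scale (0.000214), and Slc2a1 fell by 0.40 (1.19e-05). The calls of Slc7a5 (0.26, 0.00119), Slc2a3 (-0.20, 0.0194) and Slc7a3 (-0.49, 2.81e-06) were kept. With the GC and length trend removed, 1 member rose and 4 fell, beside 2223 and 2059 of all 13231 genes. Slc7a5, Slc2a3 and Slc7a3 kept their call and direction under all 22 alternative settings tried, but not their size. Slc7a5 was at 0.17 with the GC trend alone removed. Slc2a3 was at -0.20 with the GC and length trend removed. Slc7a3 was at -0.19 with the trends of the coding and 3' untranslated parts removed. Whether base composition or length itself has a part in these changes was not tested.

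Pellet 1 stood apart from the other pellets over all genes. Its chi-square per gene was 18.0 to pellet 2 and 14.1 to pellet 3, against 3.55 between pellets 2 and 3. It was also the pellet nearest to the eluates, with r of log CPM across genes of 0.961 to 0.967, against 0.940 to 0.953 for pellets 2 and 3. It was the highest of the 3 pellets for 8 of the 9 messages. Its excess over the mean of pellets 2 and 3 was 0.33 for Slc1a5, 0.32 for Slc2a1, 0.30 for Slc7a5, 0.24 for Slc2a3, 0.22 for Slc3a2 and 0.16 for Slc7a7 on the log2 scale. It was at most 0.048 for Slc7a3, Slc16a1 and Slc38a2, the 3 members of lowest GC content. The members with wide pellet spread were those with a large excess in that library, which is itself part of the spread.

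The deposited estimates are per transcript, and 6 of the 9 members had only 1 transcript there. Of the 16 transcripts of members, 15 were tested, and 7 of these were called, 3 higher and 4 lower, against 26% of all transcripts tested. One of the higher calls, Slc7a7-202, passed the count filter only through the eluates. With at least 10 counts required in every library, 6 of 13 transcripts were called, and without pellet 3 the number called was 4. The share of all transcripts called was counted only for the main comparison, so the counts in these other settings have no background beside them. The 3 transcripts of Slc3a2 all had positive log2 fold changes, 0.098 for Slc3a2-201 (edgeR adjusted p = 0.443), 0.31 for Slc3a2-207 (0.267) and 0.63 for Slc3a2-202 (0.195), and none passed the test. Slc7a3-201, with 91.1% of the counts of its gene, fell (-0.67, adjusted p = 0.00237). Slc2a1, with 1 matched transcript, was not called at this level (edgeR adjusted p = 0.146).

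Slc7a7 was the member whose transcript estimates differed between the groups while the gene total did not pass the test. Its counted transcripts have the same coding length of 1533 bases. They differ in the 5' untranslated part (183 to 403 bases) and slightly in the length of the 3' untranslated part (341 to 344 bases). Slc7a7-202 had 285, 103 and 137 estimated counts in eluates 1 to 3, against 0 in each pellet. Against a floor of 3 counts over the 3 pellets, its estimated level was 142-fold higher in the eluates. That floor covers counting error only and not the split of reads between transcripts, so the figure is no lower bound. It passed the count filter only through the eluates, so no test of it is given. Slc7a7-206 had 152, 103 and 89.0 estimated counts in the eluates, against 44.4, 46.2 and 30.7 in the pellets, and rose (log2 fold change 1.17 ± 0.23 SE, edgeR adjusted p = 0.0134). Slc7a7-209 had 84.8, 258 and 202 estimated counts in the eluates, against 315, 296 and 246 in the pellets, and did not pass the test (-0.97, adjusted p = 0.151). Eluate 1 had both the most Slc7a7-202 and the least Slc7a7-209. Of the 31-base subsequences of Slc7a7-202, 93.1% also occur in Slc7a7-209. The same holds for 91.9% of those of Slc7a7-206, and 98.6% of those of Slc7a7-209 occur in Slc7a7-206. The split of reads among these transcripts therefore rests on few bases and is uncertain, also for the rise of Slc7a7-206. The gene total does not depend on it.

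**Figure D5:**
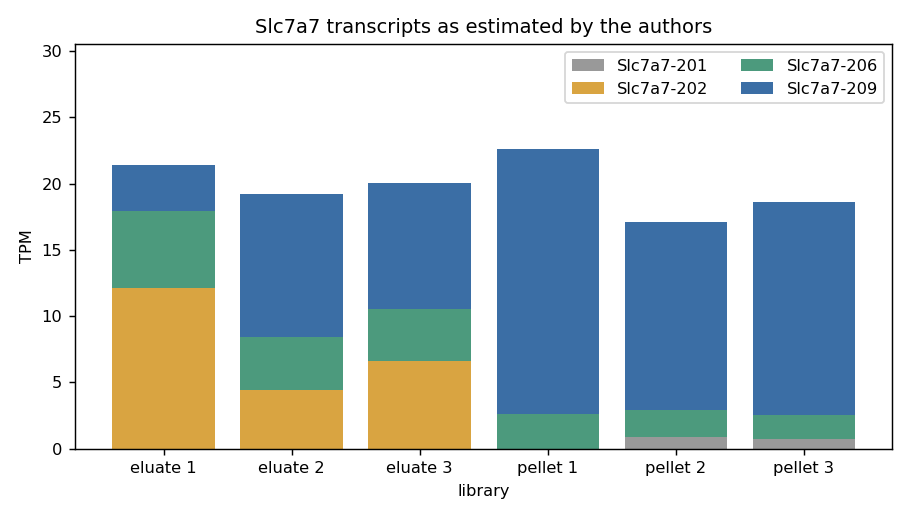
TPM of the 4 Slc7a7 transcripts (stacked bars, y axis from 0) in each eluate (left) and pellet (right) library, as estimated by the authors. Slc7a7-202 appears in the 3 eluates and not in the 3 pellets, while the bars' full heights overlap between the groups.

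Related genes were looked at by list, beside the shares of all genes. Of all 13231 genes tested, 24.5% rose and 28.2% fell. With the GC and length trend removed, 2223 of them rose and 2059 fell. Of 12 other sugar transporters, 5 were tested, 1 rose and 0 fell, with a median log2 fold change of 0.18 (all genes 0.0035). The gene that rose was Slc2a8, a glucose carrier of internal membranes, at 24.2 ± 0.456 CPM in the eluates and 15.1 ± 2.79 CPM in the pellets (SD, n = 3 each; log2 fold change 0.68 ± 0.13 SE, edgeR adjusted p = 0.000497). Slc2a12 had the smallest p in the other direction, with a log2 fold change of -0.51 (adjusted p = 0.144). Apart from Slc2a8, the genes tested had means of only 1.13 to 2.68 CPM and SE of 0.28 to 0.51. Falls like those of the members could therefore be missed in this list. Its median is the value of Slc2a5 (0.18 ± 0.34 SE). With the GC and length trend removed, Slc2a8 was at 0.16 (edgeR adjusted p = 0.288), and no gene of this list was called.

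Of 27 other amino acid transporters, 19 were tested, with a median of -0.32. In this list 1 rose (5.3%) and 9 fell (47.4%), against 24.5% and 28.2% of all genes. Slc38a4, a close relative of Slc38a2 that also carries neutral amino acids, fell to 75.4 ± 2.35 CPM in the eluates, against 148 ± 12.1 CPM in the pellets (SD, n = 3 each; log2 fold change -0.97 ± 0.077 SE, edgeR adjusted p = 1.78e-07). Slc36a1, a proton-coupled amino acid carrier also found on lysosomes, was the gene that rose (0.29 ± 0.11 SE, adjusted p = 0.0434). With the GC and length trend removed, 2 of the 19 rose and 5 fell, and Slc38a4 was at -0.37 (edgeR adjusted p = 6.71e-05). Of 9 monocarboxylate transporters and chaperones, 6 were tested, 1 rose (Bsg, above) and 1 fell (16.7% each), with a median of -0.094. The one that fell was Slc16a6, at 7.89 ± 0.459 CPM in the eluates and 14.8 ± 1.57 CPM in the pellets (SD, n = 3 each; log2 fold change -0.92 ± 0.15 SE, edgeR adjusted p = 7.88e-05). With the GC and length trend removed, 2 of these 6 rose and 2 fell.

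The sodium pump sets the gradient that Slc38a2 and Slc1a5 depend on. Of its 6 listed subunits, 5 were tested, with a median of -0.25. Among these 2 rose (40%) and 3 fell (60%), against 24.5% and 28.2% of all genes. The beta subunit Atp1b2 rose (0.28 ± 0.11 SE, adjusted p = 0.0370). With the GC and length trend removed, 0 subunits rose and 2 fell, and Atp1b2 was at 0.20 (edgeR adjusted p = 0.152). Of 5 regulators of transporter traffic, all 5 were tested, 1 rose (20%) and 2 fell (40%), with a median of -0.19. Nedd4, a ubiquitin ligase of membrane proteins, fell to 375 ± 23.8 CPM in the eluates, against 796 ± 37.1 CPM in the pellets (SD, n = 3 each; log2 fold change -1.09 ± 0.069 SE, edgeR adjusted p = 3.41e-08). Arrdc4, an arrestin-like protein related to the glucose uptake regulator Txnip, rose (0.30 ± 0.083 SE, adjusted p = 0.00664). With the GC and length trend removed, 2 of these regulators rose and 1 fell, Nedd4 was at -0.49 (edgeR adjusted p = 7.45e-07), and Arrdc4 turned to -0.081 (0.473).

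By symbol, 170 other Slc genes outside the mitochondrial Slc25 family were tested, with a median of -0.047. Of these 28 rose (16.5%) and 43 fell (25.3%), against 24.5% and 28.2% of all genes. After removal of the GC and length trend, 17 rose and 16 fell. In the Slc25 family, carriers of the mitochondrial inner membrane, 37 were tested, with a median of 0.15. Here 14 rose (37.8%) and 7 fell (18.9%), and after that removal 7 rose and 2 fell. No difference between these families and the members was tested.

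The genes whose centred log2 CPM profile over the 6 libraries lay nearest to each member were Flii for Slc2a1 (root-mean-square distance 0.022), Mcm2 for Slc2a3 (0.016), Rnaseh1 for Slc3a2 (0.016), Ski for Slc7a5 (0.031), Tubb4b for Slc7a7 (0.020), Sash1 for Slc7a3 (0.019), Maged1 for Slc1a5 (0.029), March6 for Slc38a2 (0.025) and Dna2 for Slc16a1 (0.028). Each was the nearest of 8448 candidates with a mean of at least 10 CPM.

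The authors' deposited table holds 6 of the 9 members, and its 4892 rows all have an adjusted p under 0.05. In the authors' deposited table the log2 fold change was 0.45 for Slc7a5 (adjusted p = 3.82e-05), -0.27 for Slc2a1 (0.00543), -0.41 for Slc2a3 (8.96e-08), -0.59 for Slc7a3 (2.31e-07), -0.76 for Slc38a2 (1.43e-14) and -0.77 for Slc16a1 (1.59e-11). These directions are the same as in the counts above, which come from the same study's libraries and are no independent check. Slc3a2, Slc7a7 and Slc1a5 have no row in the authors' deposited table. The rise called above for Slc3a2 therefore has no counterpart there, whereas Slc7a7 and Slc1a5 were not called above either.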

How the data were processed

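The submitters' processing notes name the tools STAR 2.7.11b, cutadapt 4.7, DESeq2 1.44.0 and Salmon 1.10.3, without their roles, and the build GRCm39. The annotation release and the tools' settings are not given in the sources read here. An estimated count and a TPM stand beside the length of each transcript in the deposited files, per the file headers. A comparison of the groups was also deposited. Its columns, per the file headers, are a mean of normalized counts, a log2 fold change and its standard error, the test statistic (a score) and a p-value, raw and adjusted.

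Identifiers of transcripts were looked up in GENCODE mouse release 21 (GRCm38), which gave names, lengths and base composition and, because the builds differ, no gene coordinates. Of 84226 transcripts, 76858 matched. The other 7368 held 1.63% to 2.35% of a library's counts and were left out, so a gene may be counted from part of its transcripts. For each member, the transcript with the most counts was searched for 31-base subsequences shared with other genes. None occurs in another gene's transcripts except 2 of 4630 in Slc38a2. The members' other transcripts were not searched.

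The estimates were added up for each gene, rounded, and passed to edgeR 4.0.16 in R 4.3.3 (quasi-likelihood fit, TMM factors, default low-count filter, Benjamini-Hochberg adjustment). All 9 members passed the filter. Intervals came from limma 3.58.1 (voom), and DESeq2 1.42.0 was an alternative. The edgeR step was tested on simulated data. Ratios within libraries used a pseudocount of 1 count and a two-sided exact permutation test. The trend in GC content and length was removed per library with splines of 5 degrees of freedom. The other steps ran in Python 3.11.15 with pandas 2.3.3, numpy 2.4.6, scipy 1.17.1 and matplotlib 3.10.9.

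The members, the lists and the alternatives were chosen with earlier results of these data known. Named genes are all members and, per list, the gene of smallest p, the gene of highest mean CPM and the gene of smallest p with the opposite sign, plus the nearest profile of each member. For the sodium pump list, 1 gene that this rule names is not reported here. No library was a repeat of another, since chi-square values per gene were 3.12 to 18.0 within groups (at most 4.01 without pellet 1) and 32.9 to 81.9 between them. The precision of low counts is limited by counting error, and a floor of 3 counts covers counting error only.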

Additional observations from a re-analysis of the deposited data

How the results depend on the processing

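Over the 9 members and 22 alternatives each, 166 of 198 values kept their direction and side of the threshold, 23 lost the call, 6 gained it and 3 reversed. The reversals were Slc3a2, at -0.10 with the GC and length trend removed and -0.098 with the replicate block added to that removal, and Slc1a5, not called there or in the main comparison, at 0.0054 without pellet 1 (range -0.20 to 0.0054 with 1 library left out). The number of members that rose was 1 instead of 2 with library totals as the only scaling, with limma on log2 TPM (pseudocount 1, pseudocount 0.1, or at least 1 TPM in 3 libraries), with the GC and length trend removed (also with the replicate block), with the GC trend removed, and with the trends of the coding and 3' untranslated parts removed, an alternative chosen after seeing the data. Leaving out 1 library gave 1 to 3 members that rose, 4 to 9 member transcripts called (4 without pellet 3, against 7, and 6 with the replicate block), and a difference in the log2 ratio of Slc7a7 to Slc3a2 of -0.12 to 0.020, reversed without pellet 3. The members' median was -0.11 with the GC and length trend removed, and -0.11 with the replicate block as well. The difference in the ratio of Slc16a1 to Bsg was -1.38 on TPM + 1. The cause of these differences was not tested. For the member transcripts, the share of all transcripts called was counted only in the main comparison.

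Over all genes, 1960, 1949 and 1909 rose in the 3 TPM fits, against 3241, so higher calls made up 35.5%, 35.5% and 36.4% of calls, against 46.5%. Genes that fell numbered 2059 with the GC and length trend removed, 2489 with the GC trend removed, 2121 with the replicate block and both trends removed, and 1366 with the coding and 3' untranslated parts' trends removed, against 3736. The last setting put higher calls at 65.7%. The Slc2a1 call was also lost with library totals as the only scaling (adjusted p = 0.0711) and with upper-quartile factors (0.151), which shifted the median of all genes to 0.094 on the log2 scale and brought Slc7a7 past the threshold (0.0297). In the 3 TPM fits Slc2a1 had an adjusted p of 0.0556 to 0.0655 and Slc3a2 of 0.466 to 0.472, both from limma, so neither was called. The Slc16a1 call was lost with the GC trend alone removed (0.0694). With the replicate block alone, 3306 genes rose and 3770 fell, and no member's call changed. Deviations of libraries with the same number correlated at 0.070, 0.15 and -0.010, and eluate 3 correlated best with pellet 1. With 3 libraries a group, such values cannot show whether the numbers mark parts of the same divided pellet. The labels do not say so either. The main comparison was therefore left unpaired, and the replicate block is its paired form. Slc7a7, with the fewest counts of the members (288 to 522 per library), is the one whose precision depth limits most.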
